A study of Mus musculus with 96 samples.

Results

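The comparison described here set 3 hepatocyte RNA libraries labelled RevScapTKO against 3 labelled RevDKO, all from zeitgeber time (ZT) 4, that is 4 h after lights on in a 12 h light and 12 h dark cycle. These 6 libraries were taken by their labels out of 96 in the series and out of 36 in the hepatocyte table that holds them, and 13326 of 25095 gene symbols in that table were tested. All mice were male C57BL/6J animals with floxed alleles of Nr1d1 and Nr1d2, which encode REV-ERBα and REV-ERBβ, nuclear receptors that repress clock genes, and the RevScapTKO mice carried floxed Scap as well. At 8 weeks of age they received an adeno-associated virus encoding Cre under the thyroxine-binding globulin promoter, which is active in hepatocytes, and they then ate a high fat and sucrose diet (D12492i) for 4 weeks. By label, both groups lacked the 2 REV-ERB genes and shared virus, diet and time of day, and RevScapTKO also lacked Scap. Control mice (3 libraries at ZT4) received the same type of virus encoding GFP and are given only as a reference level. The promoter directs Cre to hepatocytes, so the genes were not targeted in other liver cells. The labels number the 3 libraries of a group and name no animals. The p-values rest on the spread between libraries within a group, pooled over all 12 groups of the 36 libraries.

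SCAP escorts the sterol regulatory element binding proteins (SREBPs) from the endoplasmic reticulum to the Golgi apparatus, where 2 proteases release their transcription factor domains. SREBP2 chiefly drives genes of cholesterol synthesis and uptake, and SREBP1c, a product of Srebf1, those of fatty acid synthesis and desaturation. INSIG proteins hold SCAP in the endoplasmic reticulum when sterols are plentiful, and in liver the SREBP1c arm is also raised by insulin and feeding.

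Levels are given as RPKTM, the deposited unit: 10 times the RPKM (reads per kilobase of transcript, scaled to a common read total), quantile normalised by the authors. Differences are RevScapTKO minus RevDKO on the scale log2(RPKTM + 1), which understates the change of low genes, with the standard error (SE) of the limma fit and an adjusted p from limma over all genes tested. The depth of the libraries is unknown from these values. RevScapTKO replicate 1 lay closer to RevDKO than the other libraries of its group. Its levels over all genes correlated at 0.941 to 0.959 with the 3 RevDKO libraries, whereas RevScapTKO replicates 2 and 3 reached 0.882 to 0.914 (Pearson r across 13326 genes, which are not independent). Within the group r was 0.923 for replicates 1 and 2, 0.946 for 1 and 3 and 0.950 for 2 and 3, so that replicate 3 was about as near to replicate 1 as to replicate 2. All 11 hepatocyte markers tested were present and none was called, with a summed level of 532538 to 555970 in RevDKO and 456777 to 612126 in RevScapTKO. Their mean of log2(RPKTM + 1) was 13.22, 13.36 and 13.22 in RevDKO and 13.17, 13.06 and 12.87 in RevScapTKO. By that measure each RevScapTKO library lay below the RevDKO libraries, and Control held 13.47, 13.05 and 12.97. Markers of other liver cells were also present and higher in RevScapTKO: the sum of 15 macrophage markers ran from 536 to 889 in RevDKO and from 1071 to 2748 in RevScapTKO, that of 11 endothelial markers from 1158 to 1566 and from 1815 to 3371, and that of 11 stellate cell markers from 785 to 1123 and from 1779 to 3901. In bulk libraries, more cells of a type and more RNA per cell cannot be told apart.

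The targeted gene was read first. Scap (chromosome 9, 110235792 to 110287453 in mm9, plus strand) stood at 625, 475 and 733 RPKTM in RevDKO replicates 1 to 3, at 299, 175 and 158 in RevScapTKO replicates 1 to 3 and at 513, 501 and 698 in Control. All 3 RevScapTKO libraries lay below all 3 RevDKO libraries (log2 difference -1.57 ± 0.29 (SE), adjusted p = 0.000719), and replicate 1 kept the highest level of the 3. Nr1d1 was at 215, 158 and 359 in RevDKO and 138, 231 and 215 in RevScapTKO and Nr1d2 at 474, 332 and 402 in RevDKO and 289, 377 and 429 in RevScapTKO, with overlapping groups (log2 difference -0.27 ± 0.50 (SE), adjusted p = 0.761 and log2 difference -0.15 ± 0.39 (SE), adjusted p = 0.846). These are sums over whole transcripts, and Nr1d1 was at 113, 300.1 and 358 in Control, so that the transcript level does not by itself check the deletion of the REV-ERB genes. Arntl, a clock activator gene that REV-ERBs repress, was at 58.2, 32.1 and 19.7 in Control, 155, 143 and 154 in RevDKO and 141, 107 and 128 in RevScapTKO, so both deletion groups lay above Control and the contrast between them was -0.27 (adjusted p = 0.53).

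Of the 13326 genes, 1237 (9.28%) passed an adjusted p of 0.05, 590 (4.43%) higher and 647 (4.86%) lower in RevScapTKO. These shares are the ones to set beside the counts of each list below. The 3 libraries of the groups did not overlap for 1591 genes (11.9%) higher and 1623 (12.2%) lower in RevScapTKO. The 5 largest falls included those of Scd1, a fatty acid desaturase, Sqle, squalene epoxidase, Chrna4, a nicotinic receptor subunit, and Acpp, an acid phosphatase. The places of Chrna4 and Acpp rest on the pseudocount, since both were at or near 0 in RevScapTKO: with a pseudocount of 10 their differences were -3.14 and -2.51, smaller than those of Fads1, Cyp51, Insig1 and Fasn in that fit (-4.56, -4.41, -4.33 and -4.23). The 5 largest rises were those of Cyp2a4, a steroid hydroxylase, Abcc12, an ABC transporter, Nrg1, a growth factor of the neuregulin family, Esco2, a cohesin acetyltransferase of S phase, and Elovl7, a fatty acid elongase. All but Cyp2a4 were at or near 0 in RevDKO, so the sizes of their differences also depend on the pseudocount. Over the 17 alternatives these ran from 2.99 to 8.03 for Abcc12, 2.16 to 7.35 for Nrg1, 2.28 to 6.2 for Esco2 and 1.75 to 7.66 for Elovl7. The count of calls rested on single libraries: it was 2658 without RevScapTKO replicate 1, 336 without replicate 2 and 438 without replicate 3, and 701, 553 and 932 without RevDKO replicates 1, 2 and 3. It was 194 with the macrophage marker level of each library as a covariate and 142 with the level of all nonparenchymal markers, of which 142 and 115 were lower, and it was 131 when the 6 libraries were fitted alone, 91 of them lower. Of the genes named or listed here, 48 were called higher, of which 9 were still called with the macrophage covariate and 5 with the nonparenchymal one, and 69 were called lower, of which 52 and 47 were. The 48 include called markers of other liver cells. Most of these markers are part of a covariate, so their loss was built in and the 2 directions cannot be compared on equal terms.

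**Figure D1:**
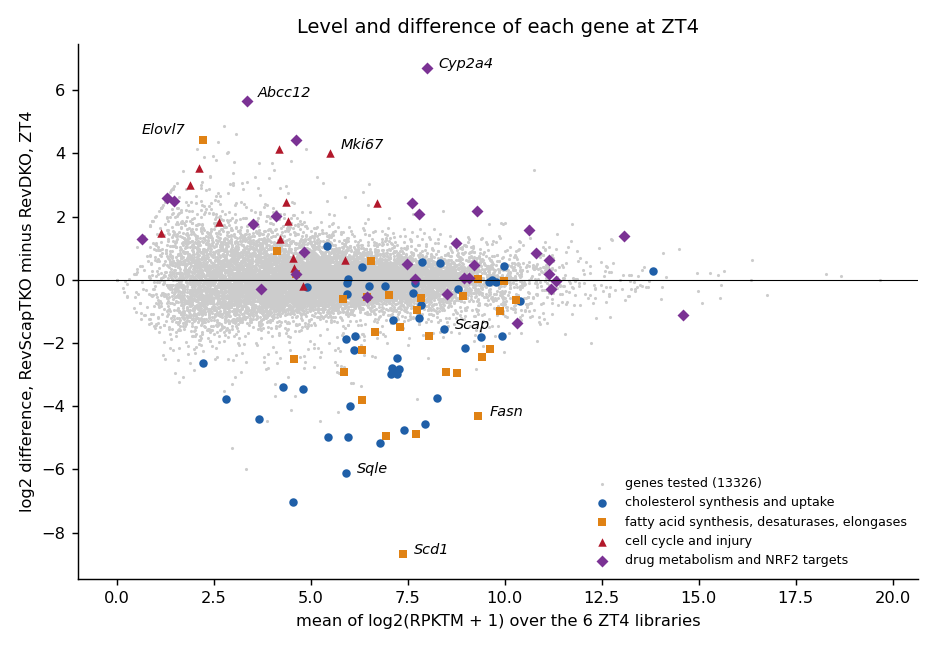
Each point is 1 of the 13326 genes tested, with the mean of log2(RPKTM + 1) over the 6 ZT4 libraries on the x axis and the log2 difference, RevScapTKO minus RevDKO, on the y axis; colours mark members of 4 groups of lists. The lowest named points are Scd1 and Sqle at -8.70 and -6.13, and the highest is Cyp2a4 at 6.70.

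The list named SREBP activation machinery holds Scap, the gene targeted by design, the SREBP genes and the INSIG genes beside the proteases. Of 14 members tested, 5 fell and none rose (median -0.152, against -0.028 over all genes). Srebf1, which encodes SREBP1, was at 1358, 1081 and 976 in RevDKO and 91.8, 74.0 and 84.9 in RevScapTKO, with every RevScapTKO library more than 10 times below every RevDKO library (log2 difference -3.74 ± 0.38 (SE), adjusted p = 2.32e-08). Srebf2, which encodes SREBP2, was at 217, 154 and 294 in RevDKO and 55.9, 156 and 77.1 in RevScapTKO. RevScapTKO replicate 2 lay within the RevDKO range, and the group mean fell by less than that of Srebf1 (log2 difference -1.28 ± 0.28 (SE), adjusted p = 0.00441). Insig1, the sterol-regulated INSIG, was at 956, 1344 and 1323 in RevDKO and 56.0, 38.3 and 57.4 in RevScapTKO, and its highest RevScapTKO library lay far below its lowest RevDKO library (log2 difference -4.56 ± 0.34 (SE), adjusted p = 2.50e-11). Lpcat3, which places polyunsaturated fatty acids into phospholipids and is also a target of the liver X receptors, fell by less (log2 difference -1.22 ± 0.18 (SE), adjusted p = 2.70e-05), and Scap was the fifth. Insig2, the other INSIG gene (-0.07, adjusted p = 0.899), the site 1 and site 2 protease genes Mbtps1 (0.52, adjusted p = 0.12) and Mbtps2 (-0.11, adjusted p = 0.864), and the ubiquitin ligase genes Rnf139 and Rnf145 did not pass the test.

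The genes that carry acetyl-CoA to farnesyl diphosphate were lower almost throughout. In the mevalonate arm 8 of 9 members fell, none rose and the median was -3.40. Fdps, farnesyl diphosphate synthase, was at 279, 193 and 272 in RevDKO and 7.24, 7.6 and 5.54 in RevScapTKO (log2 difference -4.99 ± 0.33 (SE), adjusted p = 2.36e-12), all 3 RevScapTKO libraries under 10. Mvd, the diphosphomevalonate decarboxylase, was at 59.7, 39.5 and 81.1 in RevDKO and 1.01, 3.70 and 1.22 in RevScapTKO (log2 difference -4.41 ± 0.42 (SE), adjusted p = 9.32e-09), and its groups did not overlap. Idi1, the isopentenyl diphosphate isomerase (log2 difference -3.78 ± 0.49 (SE), adjusted p = 3.45e-06), and the kinases Pmvk (-3.45) and Mvk (-3.40) fell by 3.40 or more, and Acat2, the cytosolic thiolase, by 2.22 on the log2 scale. Hmgcs1, the synthase of the pathway, fell by 2.63, but its transcript is annotated at 2 places in the table and its level may be split between them. Ggps1, which directs farnesyl diphosphate to geranylgeranyl diphosphate and so out of the sterol path, was the exception at 1.06 (adjusted p = 0.158).

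From squalene on, 11 of 14 genes fell, none rose and the median was -2.80. Sqle was at 520.2, 508 and 475 in RevDKO and 9.26, 4.16 and 5.95 in RevScapTKO (log2 difference -6.13 ± 0.48 (SE), adjusted p = 7.18e-11), and the RevScapTKO libraries held about the same low level. Msmo1, the sterol C4 methyl oxidase, was at 632, 738 and 612 in RevDKO and 23.2, 10.3 and 21.9 in RevScapTKO (log2 difference -5.16 ± 0.32 (SE), adjusted p = 4.34e-13), again with the groups far apart. Nsdhl, which removes the oxidised C4 carbon (-4.98), Cyp51, the lanosterol demethylase (-4.76), and Tm7sf2, a sterol C14 reductase (-4.00), fell by 4.00 or more. Smaller falls were those of Fdft1, squalene synthase (-2.97), Dhcr7, the last reductase of the path (-2.81), Lss, lanosterol synthase (-2.79), Hsd17b7 (-2.46), Erg28 (-1.79) and Sc5d (-1.77). Ebp, the sterol isomerase (-0.80, adjusted p = 0.335), and Lbr, a sterol reductase of the nuclear envelope (-0.44, adjusted p = 0.172), did not pass. The groups did not overlap for 13 of the 14, against 12.2% of all genes. In every alternative that left out 1 library, 8 mevalonate and 11 squalene arm members were lower, and with either marker level as a covariate the counts were 8 and 12.

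Of 11 tested genes for the uptake and movement of cholesterol, 4 fell and none rose, with a median of -0.216 over the list. Stard4, a cytosolic sterol carrier, was at 522, 332 and 422 in RevDKO and 43.9, 57.8 and 56.0 in RevScapTKO (log2 difference -2.98 ± 0.26 (SE), adjusted p = 1.84e-09), and the highest RevScapTKO library lay below the lowest RevDKO library. Tmem97, a sterol-responsive membrane protein, was at 115, 129 and 102 in RevDKO and 29.6, 37.1 and 25.3 in RevScapTKO (log2 difference -1.89 ± 0.28 (SE), adjusted p = 3.62e-05), again without overlap. Scarb1, the HDL receptor (-0.28), Lrp1 (0.28), Sort1 (-0.10) and the lysosomal cholesterol exporters Npc1 (0.01) and Npc2 (-0.18) did not pass. The intestinal type sterol transporter Npc1l1 was listed at 0 in all 6 libraries.

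**Figure D2:**
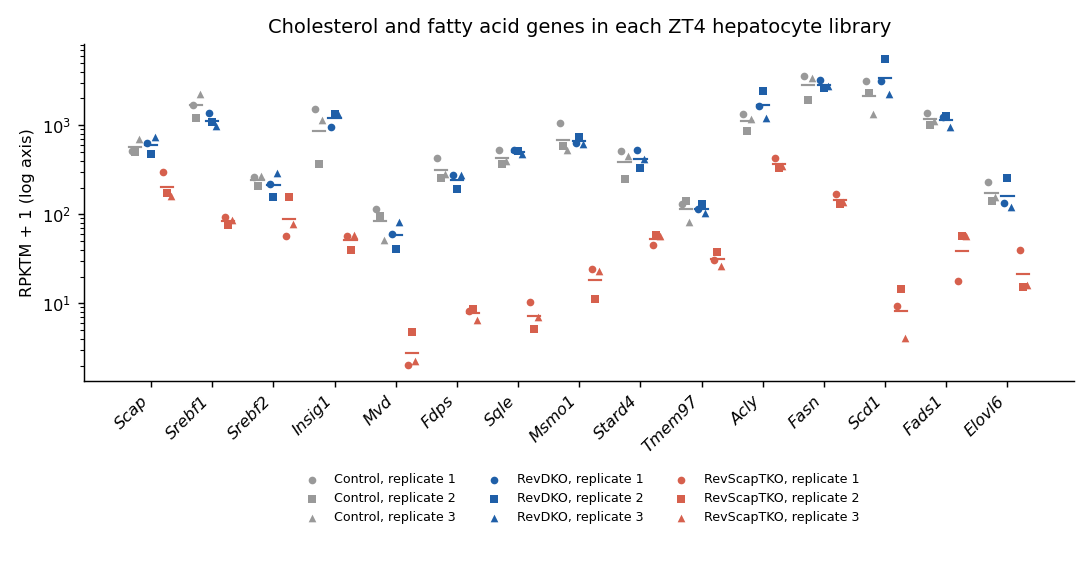
RPKTM + 1 on a log axis for 15 genes of SREBP activation, cholesterol and fatty acid synthesis in each of the 9 ZT4 hepatocyte libraries, with 1 symbol per replicate and a line at the mean of the log values of each group. RevScapTKO libraries lie below all RevDKO libraries for every gene shown except Srebf2, where RevScapTKO replicate 2 at 156 overlaps them.

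Fatty acid synthesis was lower as well, though not throughout. In the list of 15 genes 9 fell and none rose, with a median of -1.77. Fasn, fatty acid synthase, was at 3205, 2631 and 2765 in RevDKO and 168, 129 and 135 in RevScapTKO (log2 difference -4.31 ± 0.50 (SE), adjusted p = 4.05e-07), and no library of either group came near the other group. Thrsp, a hepatic lipogenic protein also called Spot 14, was at 980.3, 617 and 514 in RevDKO and 30.9, 23.5 and 12.8 in RevScapTKO (log2 difference -4.94 ± 0.67 (SE), adjusted p = 9.39e-06), and Acacb, the acetyl-CoA carboxylase of mitochondrial membranes, fell by 3.80. The suppliers of acetyl-CoA, Acss2 (-2.96) and Acly (-2.19), the acetoacetate user Aacs (-2.22), the cytosolic carboxylase Acaca (-1.77), its polymerising partner Mid1ip1 (-2.51) and the citrate carrier Slc25a1 (-1.51) were lower too. The call of Acaca was lost when a library was left out (adjusted p = 0.0524 without RevScapTKO replicate 2), as was that of Mid1ip1 (adjusted p = 0.121 without RevScapTKO replicate 2, 0.0704 without RevScapTKO replicate 3, 0.0828 without RevDKO replicate 1, 0.0683 without RevDKO replicate 3). Genes that feed the pathway from glucose did not pass: Mlxipl, which encodes the glucose-responsive factor ChREBP (-0.02), Pklr, liver pyruvate kinase (-0.96), and the NADPH producers Me1 (-0.56), G6pdx (0.18) and Pgd (0.58). Over the alternatives 6 to 9 members of the list were lower.

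Among 14 desaturases and elongases 7 fell and 1 rose (median -0.815). Scd1, the stearoyl-CoA desaturase, had the largest difference of all genes called, at 3161, 5512 and 2226 in RevDKO and 8.31, 13.4 and 3.07 in RevScapTKO (log2 difference -8.70 ± 0.52 (SE), adjusted p = 2.59e-13). The lowest RevDKO library held more than 100 times the highest RevScapTKO library. Its relative Scd2 was at 11.8, 14.6 and 9.26 in RevDKO and 20.6, 45.1 and 12.8 in RevScapTKO (adjusted p = 0.189). The desaturases of polyunsaturated fatty acids, Fads1 (-4.88) and Fads2 (-2.46), and the elongases Elovl5 (-2.93) and Elovl6 (-2.91) fell together with Tecr, the enoyl reductase of the elongation cycle (-1.64). Elovl2 fell by 0.65, a call lost without any single one of 4 libraries (adjusted p = 0.29 without RevScapTKO replicate 2, 0.0531 without RevScapTKO replicate 3, 0.0765 without RevDKO replicate 1, 0.246 without RevDKO replicate 2). Elovl7 went the other way, listed at 0 in all 3 RevDKO libraries and at 5.01, 52.1 and 31.0 in RevScapTKO (log2 difference 4.44 ± 0.89 (SE), adjusted p = 0.00211), lowest in replicate 1. No fold is given because the RevDKO group is at 0, and the call was lost with the macrophage and the nonparenchymal covariate (adjusted p = 0.069 and 0.174). Over the alternatives 5 to 8 members of the list were lower and 0 or 1 higher.

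Promoter sequences were read because the lists with the lowest medians were those of cholesterol and fatty acid synthesis. The window was 250 bases before the start of the transcript used for each gene, read from the mm9 genome for 13308 genes, and it was searched on both strands for TCACNCCA, the core of the sterol regulatory element, and for CCAAT, the site of NF-Y, a factor known to act with SREBPs. The 2 motifs did not overlap in the windows printed here. TCACNCCA stood in 401 windows (3.01%) of all genes, in 4 of 43 (9.30%) members of the 6 cholesterol and fatty acid lists above that fell and in 3 of 33 (9.09%) of their other members. A longer form, TCACNCCAC, stood in 128 windows (0.962%) and in none of the 43. CCAAT stood in 4785 windows (36%) of all genes, in 28 of the 43 (65.1%) and in 13 of the 33 (39.4%), and in 6 of 8 windows of the mevalonate arm and 11 of 14 of the squalene arm. Lists with few or no lower calls held it at similar shares, with 68.4% of the core clock list, 66.7% of the unfolded protein and integrated stress response, 64.3% of the cell cycle and injury list and 73.3% of phospholipid and methionine metabolism, and nothing particular to the lipid genes is read from it. Among all called genes it was present for 45.9% of those lower and 32.3% of those higher. The 8-letter form was taken up after the longer one had matched none of the 43. A match is a run of letters and not a measured site, and windows that end at another start of the same gene were not read.

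Of the 4 windows of fallen lipid genes that hold TCACNCCA, 3 are printed 5′ to 3′ on the strand of the gene, with TCACNCCA and CCAAT, read on either strand, in capitals. They belong to Msmo1 (chr8:67212376-67212625, minus strand), Fdft1 (chr14:63798416-63798665, minus strand) and Srebf2 (chr15:81977449-81977698, plus strand), all in mm9.
Msmo1: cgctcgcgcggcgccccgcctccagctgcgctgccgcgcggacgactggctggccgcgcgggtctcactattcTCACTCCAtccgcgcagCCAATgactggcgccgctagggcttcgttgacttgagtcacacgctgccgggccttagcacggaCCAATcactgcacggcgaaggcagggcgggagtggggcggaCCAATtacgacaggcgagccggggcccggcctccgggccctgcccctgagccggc
Fdft1: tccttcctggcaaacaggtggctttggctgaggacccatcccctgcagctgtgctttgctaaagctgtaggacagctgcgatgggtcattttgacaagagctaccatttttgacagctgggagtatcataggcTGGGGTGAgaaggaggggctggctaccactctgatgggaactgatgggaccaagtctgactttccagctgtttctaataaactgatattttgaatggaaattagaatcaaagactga
Srebf2: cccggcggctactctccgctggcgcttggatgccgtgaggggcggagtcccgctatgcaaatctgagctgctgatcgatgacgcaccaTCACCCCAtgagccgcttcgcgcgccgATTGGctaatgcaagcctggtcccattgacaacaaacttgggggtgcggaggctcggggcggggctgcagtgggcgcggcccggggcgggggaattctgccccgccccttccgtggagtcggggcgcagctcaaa
In Msmo1 a single TCACNCCA is followed by 3 CCAAT boxes. In Fdft1 the motif lies on the opposite strand with no CCAAT in the window. The 3 genes ran from the large difference of Msmo1 (-5.16) over that of Fdft1 (-2.97) to that of Srebf2 (-1.28).

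Further large falls lay outside these lists. Chrna4 was at 105, 106 and 45.5 in RevDKO and 0.492, 0.338 and 0 in RevScapTKO (log2 difference -6.00 ± 0.56 (SE), adjusted p = 5.19e-09) and Acpp at 38.4, 63.1 and 46.9 in RevDKO and 0.863, 0 and 0 in RevScapTKO (log2 difference -5.33 ± 0.30 (SE), adjusted p = 1.34e-13), so both were close to or at 0 in every RevScapTKO library. Mfsd2a, a transporter of docosahexaenoic acid as lysophospholipid, was at 132, 288 and 142 in RevDKO and 7.59, 6.28 and 7.24 in RevScapTKO (log2 difference -4.46 ± 0.93 (SE), adjusted p = 0.00305), with the 3 RevScapTKO libraries all near 7. Cdcp1, a membrane glycoprotein, was at 69.6, 84.5 and 53.1 in RevDKO and 0.433, 0.327 and 15.3 in RevScapTKO (log2 difference -4.45 ± 0.83 (SE), adjusted p = 0.00089), with most of the remaining level in RevScapTKO replicate 3. Of the 15 largest falls 14 passed in each of the 17 alternatives, and Cdcp1 was lost when the 6 libraries were fitted alone. The Cyp4a genes, which encode fatty acid ω-hydroxylases, made up the 4 falls among 12 members of their list (median -1.18, no rise). Over all genes 4.86% were called lower. Cyp4a10 was at 261, 226 and 145 in RevDKO and 15.5, 25.5 and 21.3 in RevScapTKO (log2 difference -3.27 ± 0.56 (SE), adjusted p = 0.000284), Cyp4a12a fell by 2.95, Cyp4a12b fell by 3.06 and Cyp4a32 fell by 1.92. The call of Cyp4a32 was lost when a library was left out (adjusted p = 0.0641 without RevScapTKO replicate 2). These are near-identical copies among which reads may be split, so their single values are uncertain. Cyp4a14 was at 262, 221 and 117 in RevDKO and 11.3, 123 and 31.0 in RevScapTKO (adjusted p = 0.0584) and the acyl-CoA thioesterases Acot1 to Acot4 did not pass.

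Glycerolipid and lipoprotein genes changed in few places. In triglyceride synthesis 2 of 12 members passed, in opposite directions. Over all genes 4.43% were called higher and 4.86% lower, shares to set beside this list and those that follow here. Without RevScapTKO replicate 1 the list had 1 member higher and 4 lower, and with the 6 libraries fitted alone it had none. Gpam, the mitochondrial acyltransferase that starts the path, fell (2776, 3076 and 2618 in RevDKO and 1064, 1841 and 989.6 in RevScapTKO, log2 difference -1.18 ± 0.23 (SE), adjusted p = 0.00173), and Gpat3, an acyltransferase of the endoplasmic reticulum, rose (3.57, 11.8 and 5.99 in RevDKO and 26.7, 32.7 and 48.4 in RevScapTKO, log2 difference 2.28 ± 0.49 (SE), adjusted p = 0.00422). The call of Gpat3 was lost with the 6 libraries fitted alone and with the macrophage and the nonparenchymal covariate (adjusted p = 0.0823 and 0.129 with the covariates). The terminal acyltransferases Dgat1 (0.10) and Dgat2 (-0.46) did not pass. Of 15 lipid droplet genes tested only Hsd17b13, a droplet-bound dehydrogenase, passed, and it rose (740.2, 1030.0 and 933 in RevDKO and 1387, 2112 and 2852 in RevScapTKO, log2 difference 1.18 ± 0.27 (SE), adjusted p = 0.00626), a call lost when 1 library was left out (adjusted p = 0.0698 without RevScapTKO replicate 3). The call of Hsd17b13 was also lost with the 6 libraries fitted alone and with either marker covariate (largest adjusted p 0.336). Plin2 (-0.43), Cidec (0.76) and Pnpla2, the triglyceride lipase (0.00), did not pass. Of 9 liver X receptor genes and targets Lpcat3 alone passed, with Abca1 at -0.26 and Abcg5 at -0.47.

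Among 19 apolipoprotein and lipoprotein assembly genes 1 rose and 4 fell, against 4.43% and 4.86% of all genes, with 0 to 1 and 0 to 6 over the alternatives. Apoa4, an apolipoprotein of triglyceride-rich particles, was at 499.8, 481 and 586 in RevDKO and 2737, 8942 and 7905 in RevScapTKO (log2 difference 3.47 ± 0.72 (SE), adjusted p = 0.00279). All 3 RevScapTKO libraries lay above RevDKO, replicate 1 the least. The call of Apoa4 was lost with either marker covariate (adjusted p = 0.0893 and 0.24), where the difference came down to as little as 1.80. Apoc1, Apoa2 and the hepatic lipase gene Lipc fell by 1.35, 1.17 and 1.14, and each of these 3 calls was lost without RevScapTKO replicate 2 and without other single libraries (largest adjusted p 0.27, 0.0983 and 0.247). Apob (-0.49) and Mttp, the triglyceride transfer protein of VLDL assembly (-0.17), did not pass. In fatty acid oxidation and ketogenesis, 3 of 26 genes fell and 1 rose, against 4.86% and 4.43% of all genes. The number lower ran from 0 with the nonparenchymal covariate to 6 without RevScapTKO replicate 1. Ehhadh, a peroxisomal β-oxidation enzyme (log2 difference -1.41 ± 0.28 (SE), adjusted p = 0.00188) and Fabp1, the liver fatty acid binding protein (log2 difference -1.37 ± 0.39 (SE), adjusted p = 0.0271), were among those that fell. The call of Ehhadh was lost with the macrophage and the nonparenchymal covariate (adjusted p = 0.0555 and 0.162), and that of Fabp1 was lost with either as well and without any of 4 libraries (adjusted p = 0.249 without RevScapTKO replicate 2, 0.0799 without RevScapTKO replicate 3, 0.0625 without RevDKO replicate 1, 0.0973 without RevDKO replicate 2). Fgf21, a hormone of fasting and protein restriction, rose from 0, 1.64 and 15.6 to 32.5, 42.9 and 62.2 in RevScapTKO (log2 difference 3.69 ± 0.83 (SE), adjusted p = 0.00542), and its groups did not overlap. Its call was lost when the library listed at 0 was left out (adjusted p = 0.0546 without RevDKO replicate 1). The call of Fgf21 was also lost with the 6 libraries fitted alone and with either marker covariate (largest adjusted p 0.232). Cpt1a, the entry step of mitochondrial oxidation (0.37), and Ppara (0.11) did not pass.

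**Figure D3:**
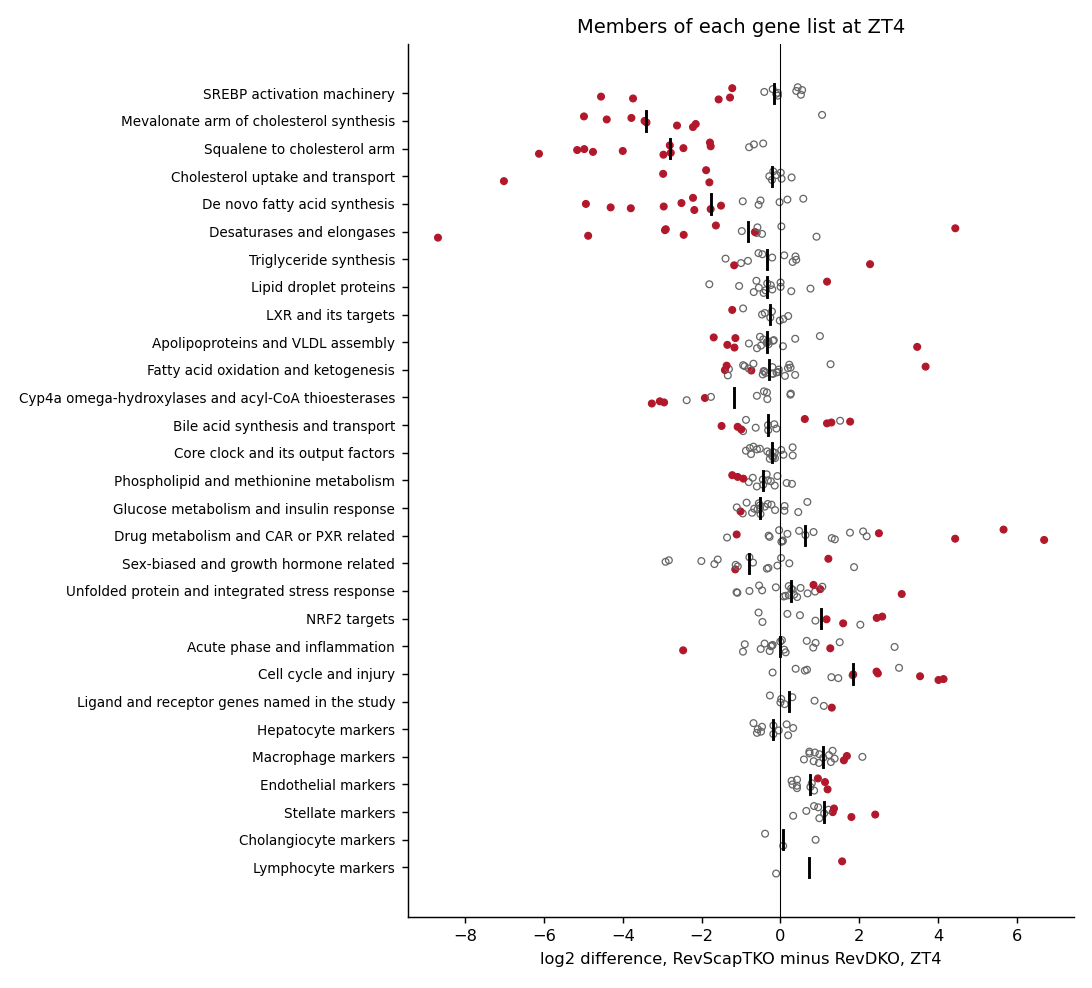
Each row is 1 of the 29 gene lists and each circle 1 of its tested members, at its log2 difference, RevScapTKO minus RevDKO, at ZT4; filled circles passed an adjusted p of 0.05 and the bar marks the median of the list. The mevalonate and squalene arms lie to the left with medians of -3.40 and -2.80, and the cell cycle and injury list and the NRF2 list to the right with medians of 1.84 and 1.03.

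Among the genes called, RevScapTKO replicate 1 differed least from RevDKO in both directions, and these genes were chosen on the same libraries. Among the 590 genes called higher, replicate 1 was the highest RevScapTKO library for 15 (2.54%), replicate 2 for 318 (53.9%) and replicate 3 for 257 (43.6%), and the median difference from the RevDKO mean was 0.709, 1.6 and 1.62. For the 647 called lower, the lowest library was replicate 1 for 58 (8.96%), replicate 2 for 372 (57.5%) and replicate 3 for 217 (33.5%), and the medians were -0.658, -1.53 and -1.35. The macrophage marker level, as the mean of log2(RPKTM + 1) over 15 markers, was 5.31, 5.98 and 6.66 in RevScapTKO replicates 1 to 3 and 4.53, 4.67 and 5.26 in RevDKO. Of the 590 higher genes 337 (57.1%) also had a higher level in the table of liver macrophages than in that of hepatocytes, against 20% of all genes and 1.24% of the 647 lower genes. These tables were normalised separately, and the part of other cells in the rises was not tested beyond the covariate fits. Single markers called, against 4.43% of all genes called higher, were C1qa and Cd5l (2 of 15 macrophage markers), Stab2, Egfl7 and Cdh5 (3 of 11 endothelial), Reln, Colec11, Col3a1 and Col1a1 (4 of 11 stellate) and Ptprc (1 of 2 tested members of the lymphocyte list, and not particular to lymphocytes), and none of 3 cholangiocyte markers passed. Of these calls only that of Reln held whenever 1 library was left out. Without RevScapTKO replicate 2 there were 0 macrophage, 0 endothelial and 1 stellate marker called, without replicate 3 the same numbers, and without replicate 1 there were 8, 5 and 8. The cholangiocyte keratin gene Krt7 was listed at 0 in all 6 libraries, and Krt19, Epcam and the lymphocyte genes Cd3e, Cd79a and Ms4a1 stayed at 4.16 or lower.

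The cell cycle and injury list had the highest median, 1.84 over 14 members. Of these 6 rose and none fell, against 4.43% and 4.86% of all genes. The 6 that rose are cell cycle genes, and the injury and oncofetal members Gdf15 (0.67), Afp (0.39) and H19 (3.01) did not pass. Mki67, a marker of cycling cells, was at 11.4, 9.15 and 10.3 in RevDKO and 50.8, 1030.0 and 111 in RevScapTKO (log2 difference 4.01 ± 0.87 (SE), adjusted p = 0.00399), so that replicate 2 alone set most of the group mean. Top2a, the topoisomerase of dividing cells, was at 2.02, 3.04 and 5.55 in RevDKO and 25.0, 209.7 and 79.1 in RevScapTKO (log2 difference 4.14 ± 0.89 (SE), adjusted p = 0.00374). Ccnd1, the G1 cyclin, was at 26.4, 75.6 and 41.6 in RevDKO and 147, 376 and 254 in RevScapTKO, above RevDKO in every library (log2 difference 2.44 ± 0.47 (SE), adjusted p = 0.0012). Cdk1, the mitotic kinase (3.54), and the replicative helicase genes Mcm5 (2.47) and Mcm2 (1.85) rose too. Only Ccnd1 and Mcm5 were still called without RevScapTKO replicate 2. There the adjusted p was 0.0784 for Mki67, 0.0543 for Top2a, 0.0911 for Cdk1 and 0.0952 for Mcm2, and Mcm2 was also lost without RevScapTKO replicate 3 or RevDKO replicate 3. With the macrophage marker level as a covariate 1 member of the list was called, and with all nonparenchymal markers none was. The 15 largest rises also held Esco2 (1.06, 1.37 and 0 in RevDKO and 18.2, 77.7 and 47.6 in RevScapTKO), Uhrf1, which keeps DNA methylation through replication (4.01), Ckap2, a spindle protein (4.13), Cenpf, a kinetochore protein (4.04), and Diaph3, a formin (3.90). They belong to no list here and were put together after their values were seen, so no theme is read from them. Without RevScapTKO replicate 2 the calls of Ckap2, Cenpf and Diaph3 were lost (adjusted p = 0.0875, 0.121 and 0.093), as they were with either marker covariate, and Uhrf1 was lost with the nonparenchymal one. Nrg1 was at 0, 0.965 and 0 in RevDKO and 30.2, 33.6 and 45.4 in RevScapTKO (log2 difference 4.88 ± 0.83 (SE), adjusted p = 0.000276) and Dusp8, a phosphatase of stress kinases, at 0, 0 and 1.38 in RevDKO and 11.4, 55.5 and 29.2 in RevScapTKO (log2 difference 4.37 ± 0.82 (SE), adjusted p = 0.000951), both at or near 0 in RevDKO. Of the 15 largest rises 5 passed in each of the 17 alternatives: Abcc12, Dusp8, Esco2, Fam25c and Nrg1. At ZT4 Abcc12, Dusp8, Esco2 and Nrg1 exceeded the filter level of 5 RPKTM in RevScapTKO libraries only. Their entry to the test may thus rest on the group where they are high, though they also passed with no filter.

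Of 21 drug metabolism genes tested 4 were higher and 1 lower (median 0.634), against 4.43% and 4.86% of all genes, so that the single gene lower is no more than that share. Cyp2a4 was at 38.3, 20.2 and 18.3 in RevDKO and 225, 13136 and 6031 in RevScapTKO (log2 difference 6.70 ± 1.55 (SE), adjusted p = 0.00677), with RevScapTKO replicates 2 and 3 far above replicate 1 and all 3 above RevDKO. Its call was lost when 1 library was left out (adjusted p = 0.0798 without RevScapTKO replicate 2) and with either marker covariate (largest adjusted p 0.311). The near-identical neighbour of Cyp2a4, Cyp2a5, was at 6999.6, 4734 and 4509 in RevDKO and 5836, 41798 and 10848 in RevScapTKO (adjusted p = 0.0704). Abcc12 was at 2.02, 0 and 0 in RevDKO and 28.1, 107 and 124 in RevScapTKO (log2 difference 5.67 ± 0.88 (SE), adjusted p = 8.70e-05), and it passed in every alternative. Cyp2b9 (4.44) and the glutathione transferase Gsta1 (2.50) rose, and both calls were lost without single libraries (for Cyp2b9 adjusted p = 0.143 without RevScapTKO replicate 2, 0.0616 without RevScapTKO replicate 3, 0.142 without RevDKO replicate 1, 0.0683 without RevDKO replicate 3; for Gsta1, whose reads may be shared with its near-identical copy Gsta2, without any of 5 libraries). Cyp2e1, the ethanol-inducible oxidase, fell by 1.11, a call lost without any of 4 libraries (adjusted p = 0.0995 without RevScapTKO replicate 2, 0.245 without RevScapTKO replicate 3, 0.0545 without RevDKO replicate 1, 0.228 without RevDKO replicate 2). The list had 1 member called higher without RevScapTKO replicate 2, 2 without replicate 3 and 8 without replicate 1. With either marker covariate 1 member was called higher and none lower.

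NRF2 targets, the genes of the antioxidant response, had 4 of 10 members higher and none lower, against 4.43% and 4.86% of all genes. Their median was 1.03. Gclc, the catalytic subunit for glutathione synthesis, was at 843, 1039.9 and 841 in RevDKO and 1311, 5313 and 2907 in RevScapTKO, above RevDKO in all 3 libraries (log2 difference 1.59 ± 0.30 (SE), adjusted p = 0.0012). Srxn1, which reduces peroxiredoxins, was at 68.7, 126 and 66.8 in RevDKO and 189, 1275 and 397 in RevScapTKO (log2 difference 2.44 ± 0.55 (SE), adjusted p = 0.00548). Slc7a11, the cystine importer (2.58), and Txnrd1, thioredoxin reductase (1.17), rose as well. Without RevScapTKO replicate 2 only Gclc among them was called (for Srxn1 adjusted p = 0.0938), and none was with the nonparenchymal markers as a covariate. Slc7a11 was also lost without replicate 3 and without each RevDKO library (largest adjusted p 0.14), and Txnrd1 in 2 such fits (adjusted p = 0.151 without RevScapTKO replicate 2, 0.0598 without RevDKO replicate 2). Nqo1 (8.01, 14.6 and 3.40 in RevDKO and 10.2, 132 and 27.3 in RevScapTKO) did not pass (adjusted p = 0.1). Gclm, at a negative difference of -0.46 (adjusted p = 0.151 in limma), did not pass either.

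**Figure D4:**
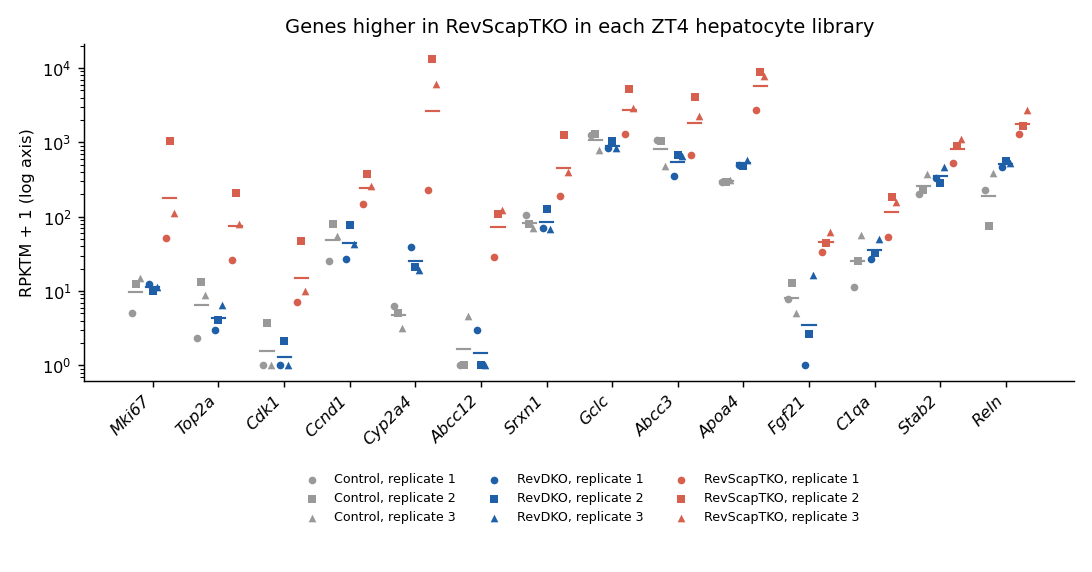
RPKTM + 1 on a log axis for 14 genes called higher in RevScapTKO, in each of the 9 ZT4 hepatocyte libraries, with 1 symbol per replicate and a line at the mean of the log values of each group. RevScapTKO replicate 1 lies nearest to RevDKO for most genes, as for Cyp2a4 at 225 beside 13137 and 6031 in replicates 2 and 3.

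Bile acid genes split in direction, with 4 of 15 tested higher and 3 lower, against 4.43% and 4.86% of all genes. The canalicular and basolateral exporters Abcc2 (1.29), Abcc3 (1.77) and Abcb4 (1.18) and the bile acid receptor gene Nr1h4 (0.62) rose, and Abcc3 was at 355, 668 and 659 in RevDKO and 686, 4026 and 2246 in RevScapTKO, highest in replicate 2. The uptake carrier Slc10a1 (1197, 1506 and 1240.5 in RevDKO and 1106, 268 and 336 in RevScapTKO, -1.49), the conjugating ligase Slc27a5 (-1.09) and the sterol 27-hydroxylase Cyp27a1 (-1.0) fell. Cyp7a1, the rate-limiting enzyme of bile acid synthesis, was at 811, 2054 and 1978 in RevDKO and 1590.0, 665 and 433 in RevScapTKO (adjusted p = 0.25). Without RevScapTKO replicate 2 the list had 1 member called higher and none lower, without replicate 3 it had 2 and 1, without RevDKO replicate 1 it had 0 and 2 and without RevDKO replicate 2 it had 1 and 1. None was called with either marker level as a covariate or with the 6 libraries fitted alone.

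The remaining lists held few calls. In the unfolded protein and integrated stress response 3 of 21 rose, against 4.43% of all genes, and 0 to 4 over the alternatives: Atf3, a stress-induced factor (2.30, 1.37 and 3.33 in RevDKO and 16.8, 28.1 and 38.7 in RevScapTKO, log2 difference 3.08 ± 0.74 (SE), adjusted p = 0.00845), Hsp90b1, a chaperone of the endoplasmic reticulum (1.01), and Ern1, the sensor IRE1α (0.84). Leaving out 1 library ended the call of Atf3 (adjusted p = 0.0553 without RevScapTKO replicate 3) and that of Ern1 (adjusted p = 0.0629 without RevDKO replicate 2). Atf3 was also lost with either marker covariate (largest adjusted p 0.147). Ern1 was lost with either covariate and with the 6 libraries fitted alone (largest adjusted p 0.19). Hsp90b1 was lost with the nonparenchymal covariate and with the 6 libraries (largest adjusted p 0.117). Ddit3 (0.35), Trib3 (0.69) and Hspa5 (0.42) did not pass. In phospholipid and methionine metabolism, 3 of 15 members fell, against 4.86% of all genes, and 1 to 5 over the alternatives: Lpcat3, the hydrolase gene Ahcy (-1.09) and the glycine methyltransferase gene Gnmt (-0.94). Both calls other than Lpcat3 were lost when a library was left out (for Ahcy adjusted p = 0.0871 without RevScapTKO replicate 3, and for Gnmt 0.0793 without RevScapTKO replicate 2, 0.123 without RevScapTKO replicate 3). Of 19 genes of glucose metabolism and insulin response only Fbp1, a gluconeogenic phosphatase, passed and fell (-1.01), a call lost in 3 fits with 1 library fewer (adjusted p = 0.298 without RevScapTKO replicate 2, 0.0766 without RevScapTKO replicate 3, 0.148 without RevDKO replicate 2). Without RevScapTKO replicate 1 the list had 4 members lower.

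Among 19 acute phase genes Orm1, a plasma glycoprotein, fell in every alternative (521, 831 and 537 in RevDKO and 148, 51.4 and 175 in RevScapTKO, log2 difference -2.47 ± 0.46 (SE), adjusted p = 0.000895), and Hp, haptoglobin, rose by 1.27 but was lost without any of 5 libraries (largest adjusted p 0.27). Ghr, the growth hormone receptor, fell (2457, 2618 and 2405 in RevDKO and 2069.5, 577 and 1189.6 in RevScapTKO, log2 difference -1.15 ± 0.27 (SE), adjusted p = 0.00808), lost with 1 library fewer (adjusted p = 0.131 without RevScapTKO replicate 2), and in the same list of 17 sex-biased and growth hormone related genes (median -0.789) Mup20, a major urinary protein, rose by 1.22, lost without any of 5 libraries (largest adjusted p 0.143). Other Mup genes of the list were at negative differences that did not pass, -2.92 for Mup1, -2.01 for Mup3, -2.83 for Mup7 and -1.59 for Mup17, and reads may be shared among these near-identical genes. The list had 1 member higher and 1 lower, as did the acute phase list, against 4.43% and 4.86% of all genes. Without RevScapTKO replicate 1 the sex-biased and growth hormone list had 0 and 5. Among 8 ligand and receptor genes that the study follows Bmp5, a secreted bone morphogenetic protein, rose (13.6, 22.9 and 13.4 in RevDKO and 33.0, 41.5 and 51.5 in RevScapTKO, log2 difference 1.30 ± 0.34 (SE), adjusted p = 0.0142), lost without any of 4 libraries (adjusted p = 0.0625 without RevScapTKO replicate 2, 0.0869 without RevScapTKO replicate 3, 0.06 without RevDKO replicate 1, 0.0546 without RevDKO replicate 3). This 1 call among 8 stands against 4.43% of all genes called higher. Of the calls in this paragraph only that of Orm1 held with each of the 2 marker covariates.

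None of 19 core clock genes and output factors passed (median -0.208). At ZT4 Dbp was at 129, 78.2 and 105 in RevDKO and 23.0, 127 and 56.9 in RevScapTKO, Npas2 at 72.4, 77.4 and 68.2 in RevDKO and 58.5, 59.2 and 74.6 in RevScapTKO and Cry1 at 141, 98.7 and 108 in RevDKO and 112, 121 and 74.3 in RevScapTKO, with adjusted p of 0.336, 0.874 and 0.707. The groups did not overlap for 2 of the 19, both lower in RevScapTKO, against 12.2% of all genes without overlap and lower. In each of 3 of the 17 alternatives 1 member was called lower, among them the fits without RevScapTKO replicate 1 and without replicate 2.

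The same contrast was read at 3 other times, in other libraries. At ZT10 121 genes (0.908%) passed, at ZT16 183 (1.37%) and at ZT22 313 (2.35%). Of the 647 genes lower at ZT4, 87 were also called lower at ZT10 (13.4% of the ZT4 list and 88.8% of the ZT10 list), 114 at ZT16 (17.6% and 75.0%) and 148 at ZT22 (22.9% and 62.4%), and 64 (9.89%) were lower at all 3. Of the 590 genes higher at ZT4, 15, 16 and 36 recurred (2.54%, 2.71% and 6.10% of the ZT4 list and 65.2%, 51.6% and 47.4% of the others), and 4 (0.678%) were higher at all 3 times. The sign was kept more widely than the call: 93.9%, 94.1% and 90.0% of the 590 were positive at ZT10, ZT16 and ZT22, with median differences of 0.631, 0.519 and 0.564 against 1.31 at ZT4, and 93.7%, 92.3% and 90.9% of the 647 were negative, with medians of -0.506, -0.505 and -0.543 against -1.19. The median of the 15 macrophage markers was also positive at these times, at 0.875, 1.03 and 1.22. The 590 and 647 genes were chosen on the ZT4 libraries, which favours larger medians at ZT4, so no ZT4 peak is read from them. The mevalonate arm had 8, 7 and 8 members lower at ZT10, ZT16 and ZT22, the squalene arm 11, 12 and 10, cholesterol uptake 4 each time and fatty acid synthesis 8, 11 and 10. The cell cycle and injury list had 0, 0 and 1 members higher and none lower. The NRF2 list had 0, 0 and 1 higher and 0, 1 and 1 lower. Scd1 differed by -8.03, -9.25 and -9.68 at the 3 other times, Sqle by -5.44, -5.54 and -4.71, Fasn by -4.00, -4.98 and -5.40 and Srebf1 by -3.87, -3.96 and -4.69. Mki67 differed by 2.78, 2.12 and 2.35, Gclc by 0.48, 0.66 and 0.31 and Apoa4 by 1.64, 0.70 and 1.10, all smaller than at ZT4. Mki67, Gclc and Apoa4 were called at ZT4, so the same limit applies to them.

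Whether the ZT4 difference departed from the mean of the other 3 was tested directly. No gene passed (0 of 13326, 0.0%), the smallest adjusted p of limma was 0.559, and 1090 genes had an unadjusted p under 0.05. Leaving out RevScapTKO replicate 1 gave 165 calls, 48 of them higher at ZT4, and 1 gene was called with no filter on low values. The 5 positive departures with the smallest p were those of Phldb1, Shfl, Gm19619, Cep170b and P3h3 (1.42, 1.18, 2.90, 1.29 and 2.01 on the log2 scale). The 5 negative ones were those of Fkbp3, Msmo1, Uqcc3, Mup7 and Lpl (-1.05, -1.53, -1.51, -5.00 and -1.53). Lpl, lipoprotein lipase, was at 368, 348 and 339.6 in RevDKO and 77.0, 87.5 and 139 in RevScapTKO at ZT4 (log2 difference -1.84 ± 0.35 (SE), adjusted p = 0.0011), with each RevScapTKO library well below the RevDKO libraries, and its differences at the other times were -1.14, -0.11 and 0.35. Msmo1 was lower at all 4 times, with -5.16 at ZT4 and -4.25, -3.22 and -3.42 after it.

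**Figure D5:**
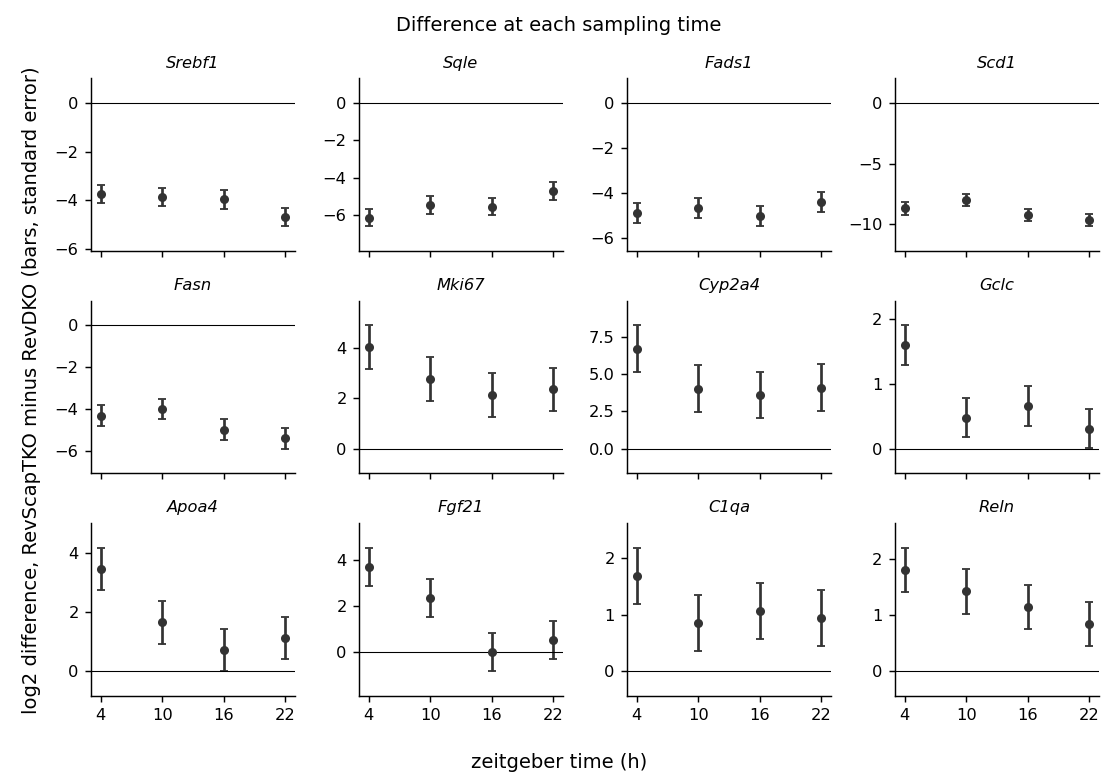
Log2 difference, RevScapTKO minus RevDKO, with its standard error against zeitgeber time in hours for 12 genes, from 3 libraries a group at each time. Srebf1, Sqle, Fads1, Scd1 and Fasn lie far below 0 at all 4 times, and the points of Mki67, Gclc, Apoa4 and Fgf21 are highest at ZT4; no departure of ZT4 passed the test across genes.

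Control levels are set beside these values for reference, and that contrast shares the RevDKO libraries. In RevDKO minus Control at ZT4 78 genes were called, 55 higher and 23 lower. Scd1 was at 3108, 2319 and 1330.3 in Control, Fasn at 3578, 1926 and 3368 and Sqle at 530.4, 366 and 400.0, within or near the RevDKO range in each case. Lpl stood lower in Control, at 19.1, 17.4 and 49.0 in Control (3.74 for RevDKO minus Control, adjusted p = 3.28e-08), and its RevScapTKO libraries lay between Control and RevDKO. Apoa4 was at 296, 294 and 311, Cyp2a4 at 5.39, 4.14 and 2.18 and Mki67 at 4.10, 11.3 and 14.2 in Control, all below every RevScapTKO library.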

How the data were processed

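The RNA is labelled, and described by the study, as that of isolated hepatocytes; their purity was read from marker genes. Groups were collected in alternation and all libraries were made together, with ribosomal RNA removed. The authors aligned reads with STAR to mm9 and counted them on RefSeq transcripts with HOMER (versions and the strand setting of the count are not given in the sources used here). The deposited values are 10 times the RPKM (RPKTM), quantile normalised by the authors, and all 36 libraries of the table hold the same sorted values. Differences are therefore relative within a library, a shift of all genes cannot be seen, and depth is unknown, so that no counting interval is given. Precision rests on 3 libraries a group and on the spread pooled over all 12 groups.

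One transcript with the highest mean over the table was kept for each of 25095 symbols out of 42322 transcripts, and 13326 genes with at least 3 of the 36 libraries over 5 RPKTM were tested. limma 3.58.1 (R 4.3.3, trend) was fitted to log2(value + 1) with a mean for each of 12 groups of genotype and time, without a replicate block, and p-values were adjusted by Benjamini-Hochberg over all genes at 0.05. The fit was tested on simulated data. Genes were named as the targeted genes, the 15 largest rises and falls among called genes without overlap between groups, the 5 smallest p in each direction of the time contrast, and up to 6 members a list by size of difference or by role. Genes and lists were chosen with earlier results of these data known. Insig2, Scd2, Arntl and others that did not pass were named for their role. Promoters were read from the mm9 genome at the RefSeq starts of the table, and 18 genes were left out of that search. Mean marker levels per library served as covariates in 2 alternatives. Other settings tried were 2 pseudocounts, 2 filters, all transcripts, fits of 24 and of 6 libraries, a replicate block, centring on the median, robust variance moderation and each ZT4 library left out in turn. Tables of the other cell types and genotypes were not used, except that each gene's mean level in the macrophage table was set beside its hepatocyte level. Figures were drawn with matplotlib 3.10.9. Results of some listed genes are not reported here.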

Additional observations from a re-analysis of the deposited data

How the results depend on the processing

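The ZT4 count of 1237 moved to 2268 over all transcripts, 781 in a fit of the 24 RevDKO and RevScapTKO libraries, 131 in a fit of the 6 ZT4 libraries, 194 with the macrophage marker level as a covariate and 142 with the nonparenchymal one. Leaving out 1 library gave 336 to 2658 at ZT4 and 0 to 165 for the time contrast, for which no filter on low values gave 1 and a fit of 6 libraries could give none. At ZT10 (121) the count was 236 over all transcripts and 71 with the nonparenchymal covariate, and at ZT16 (183) 295 over all transcripts. At ZT22 (313) it was 549 over all transcripts, 205 with no filter, 201 with 24 libraries, and 119 and 137 with the 2 covariates. All transcripts hold more tests, and the covariates rise with genotype, so part of the genotype difference is lost with them by construction; for the other settings the cause was not tested. The share of ZT4 calls that were higher was 47.7%, and it was 27.6% with no filter, 30.5% with 6 libraries, 26.8% and 19% with the covariates and 50.9% after centring. With the replicate number as a block 1419 genes passed at ZT4, 1155 of them among the 1237, and 0 in the time contrast; the block also called 1 core clock gene lower. Same-numbered RevDKO and RevScapTKO libraries at ZT4 deviated together at r = 0.07, 0.104 and 0.108, each best with its own number, so the design gives no pairing and the numbers only hint at one. None of 117 called genes named or listed changed direction in any of the 17 alternatives in which it was tested. Depth is unknown, and levels near 0 could not be told from 0.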

Other observations

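Igf2, a fetal growth factor silenced in adult liver, was listed at 0 in all 3 RevDKO libraries and in RevScapTKO replicate 1 and stood at 13.5 and 26.7 RPKTM in replicates 2 and 3, the latter the highest of all 36 libraries. Gpc3, an oncofetal proteoglycan, was at 0.048, 0.148 and 1.84 in RevDKO and 1.89, 2.20 and 11.8 in RevScapTKO, again with the highest level of the table in replicate 3. Both stayed under the filter on low values and were not tested. Mup7, a major urinary protein gene with near-identical copies, was at 1988, 1169.8 and 1911 in RevDKO and 4139.7, 28.6 and 99.3 in RevScapTKO (adjusted p = 0.104 in limma), so that RevScapTKO replicate 1 lay above RevDKO and replicates 2 and 3 far below.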
